A study of Mus musculus with 4 samples.

Results

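The enzymes and regulators of glycolysis and glycogen turnover were followed in mouse quadriceps as a set of 35 named genes. The set covers glucose transporters, the glycolytic enzymes, lactate dehydrogenase, the enzymes that build and break down glycogen, and a pair of side branches. A gene was measured when at least 1 probe set was annotated to it and to no other gene, and its brightest such probe set over the 4 arrays stood for it. By this rule 31 of the 35 genes were measured, out of 22180 genes on the array. Gpi1, Pfkfb1 and Eno1 were not matched, and the probe set of Aldoa, the muscle aldolase, is also annotated to Aldoart1 and was not used. The symbol Pgm2 follows the annotation used here. The phosphoglucomutase gene Pgm1, which earlier carried the symbol Pgm2, shares its probe set with Itgb3bp and was not measured.

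Fast muscle fibres take up glucose, store it as glycogen and split it to pyruvate and lactate when they contract. Glycogen phosphorylase releases glucose phosphate from glycogen after phosphorylase kinase has activated it, and calcium released during contraction activates that kinase. Glycogen synthase with the branching enzyme and glycogenin rebuilds the store. Many of these steps have an isoform that is typical of muscle fibres and another that is found in most cells.

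The comparison was between quadriceps of NF90-NF45 dbTg mice (double transgenic for NF90 and NF45, 2 arrays) and quadriceps of wild-type mice (WT, 2 arrays). NF90 and NF45 form a complex that binds double-stranded RNA. In both groups replicate 1 was a male and replicate 2 a female. All mice were 16 weeks old except WT replicate 1, aged 17 to 18 weeks. Neither the promoter that drives the transgenes nor the strain is given in the labels. Each array holds the RNA of 1 mouse. The p-values therefore rest on the spread between these mice, which limma moderates by the spread of all tested genes. Within a group this spread includes the difference of sex, and in WT also that of age. Total RNA was measured on Affymetrix whole-transcript arrays, and the values are on the log2 RMA scale, so a difference of 1 is a doubling. Probe sets respond differently, so levels are compared between arrays and never between genes. The NF45 gene Ilf2 read 10.36 and 10.16 in dbTg, against 5.03 and 5.04 in WT (difference 5.23, limma adjusted p = 7.17e-05). The 7 markers of skeletal muscle, which include Acta1, Ckm and Myh4, averaged 10.03 and 9.92 in dbTg and 10.10 and 10.17 in WT, so that the tissue read as skeletal muscle in every array.

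Most glycogen genes and all 11 measured muscle isoforms read lower in dbTg muscle, while the ubiquitous isoforms had 4 positive and 4 negative differences. None of these differences passed the threshold over all genes. In limma, with Benjamini-Hochberg adjustment over all 13308 tested genes, 0 of the 31 members were called at an adjusted p under 0.05, where 2.21% of all tested genes were called (2.01% higher and 0.203% lower in dbTg). The difference was negative for 22 members (71.0%, against 39.5% of all tested genes) and positive for 9 (29.0%, against 60.5%). At an unadjusted p under 0.05, 9 members (29.0%) were lower in dbTg, where 4.64% of all tested genes were lower. By the same measure 2 members (6.45%) were higher, where 14.0% of all tested genes were higher. The dbTg and WT arrays did not overlap for 13 members with lower dbTg values (41.9%, against 16.3% of all tested genes) and for 5 with higher dbTg values (16.1%, against 33.7%). The median log2 difference over the 31 members was -0.35, and over all tested genes it was 0.09. Without dbTg replicate 2 the median of the members was -0.20 and the number lower at an unadjusted p under 0.05 was 4. That median was -0.27 without WT replicate 1, -0.25 without WT replicate 2 and -0.25 without dbTg replicate 1. In a whole muscle, fewer fibres of a kind and less RNA in each fibre cannot be told apart.

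**Figure D1:**
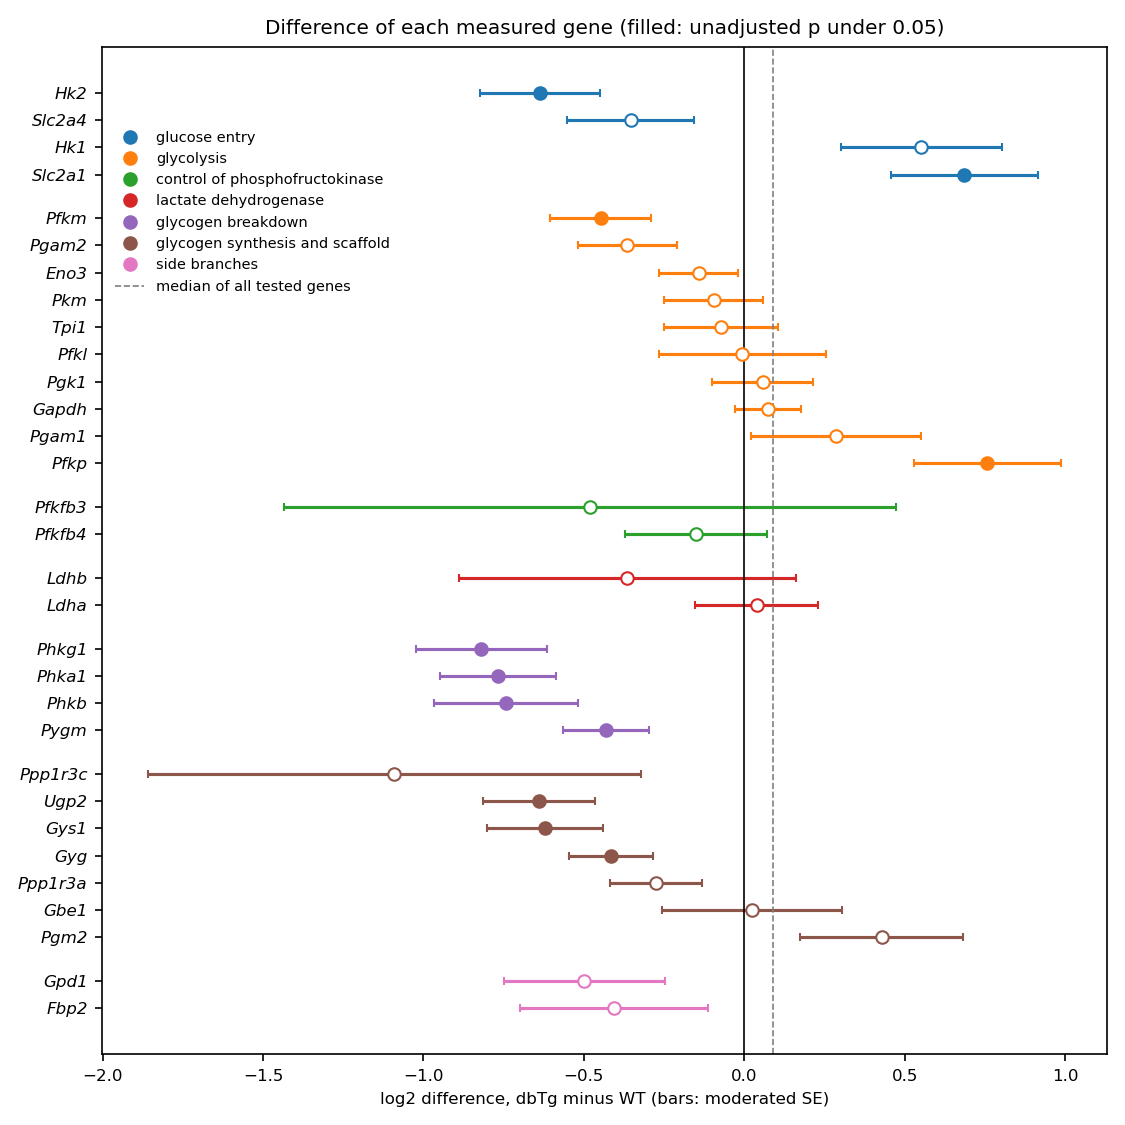
Log2 difference, dbTg minus WT, of the 31 measured genes, grouped by role, with the moderated standard error as bars and filled points for an unadjusted limma p under 0.05. All 4 genes of glycogen breakdown lie left of 0, with differences of -0.82 to -0.43, and the largest positive difference is that of Pfkp, at 0.76.

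The genes of glycogen breakdown were lower on both dbTg arrays than on either WT array, at 4 of 4 members. By the same measure 16.3% of all tested genes were lower. Pygm encodes muscle glycogen phosphorylase, and Phka1, Phkb and Phkg1 encode the regulatory alpha, the regulatory beta and the catalytic gamma subunit of phosphorylase kinase. Phkg1 read 7.19 and 6.64 in dbTg, against 7.77 and 7.70 in WT. This was the largest difference among them, at -0.82 (SE 0.20, unadjusted p = 0.00552, adjusted p = 0.0977), which makes dbTg 0.567 of WT. Phka1 read 8.30 and 7.90 in dbTg, against 9.002 and 8.73 in WT. Its difference of -0.77 (SE 0.18, unadjusted p = 0.00415) had the smallest adjusted p of all members, 0.0859. Phkb read 7.87 and 7.57 in dbTg, against 8.76 and 8.16 in WT. Its difference was -0.74 (SE 0.22, adjusted p = 0.143), and the WT arrays lay farther apart than for the other subunits. Pygm read 10.35 and 10.10 in dbTg, against 10.74 and 10.57 in WT. The enzyme thus differed by less than its kinase subunits did, at -0.43 (SE 0.13, adjusted p = 0.151). Without WT replicate 2, Phka1 (-0.91, limma adjusted p = 0.0432) and Phkb (-1.05, adjusted p = 0.0215) were called. Without WT replicate 1 the difference of Phkb was -0.44, and without dbTg replicate 2 that of Phkg1 was -0.54. Over all alternatives the adjusted p of Phka1 ranged from 0.0432 to 0.461 and that of Phkb from 0.0215 to 0.579. The male and the female pair each had a negative difference for all 4 genes, which follows from groups that do not overlap.

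The other phosphorylase kinase and phosphorylase isoforms differed the other way. They were chosen for this comparison from the list of other glycogen genes after their values were seen. Phkg2, the gamma subunit best known from liver, read 3.59 and 3.55 in dbTg, against 3.10 and 2.93 in WT (difference 0.55, unadjusted p = 0.0344, adjusted p = 0.223). Phka2, the liver alpha subunit, read 3.93 and 4.04 in dbTg, against 3.38 and 3.68 in WT (difference 0.46, adjusted p = 0.311). Pygb, the brain phosphorylase, had a difference of 0.48 (adjusted p = 0.324), and Pygl, the liver phosphorylase, of 0.40 (adjusted p = 0.361). Within each array, the log2 value of Phkg2 minus that of Phkg1 was higher in dbTg than in WT by 1.37, that of Phka2 minus Phka1 by 1.23 and that of Pygb minus Pygm by 0.91. The groups did not overlap for any of these 3 contrasts. This had to be so, because each of the genes alone was already apart in its own direction. Of all tested genes, 33.7% were apart with higher dbTg values and 16.3% with lower ones. With 2 arrays against 2, an exact permutation test (two-sided) gives p = 0.333 for each, the smallest it can give.

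The promoters of the 4 breakdown genes are shown because these genes differed in the same direction. Each sequence is the 250 bases before a RefSeq transcript start (assembly GRCm38.p6), 5′ to 3′ on the gene's strand, with every E-box in capitals. The E-box, CANNTG, is the motif that myogenic factors such as MyoD bind, and it reads the same on both strands.
Pygm (chr19:6384158-6384407, plus strand): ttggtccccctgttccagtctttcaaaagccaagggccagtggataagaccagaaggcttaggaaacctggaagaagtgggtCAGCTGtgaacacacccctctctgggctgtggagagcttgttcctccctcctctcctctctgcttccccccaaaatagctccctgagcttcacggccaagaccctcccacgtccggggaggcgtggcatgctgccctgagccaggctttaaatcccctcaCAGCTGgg
Phka1 (chrX:102644247-102644496, minus strand): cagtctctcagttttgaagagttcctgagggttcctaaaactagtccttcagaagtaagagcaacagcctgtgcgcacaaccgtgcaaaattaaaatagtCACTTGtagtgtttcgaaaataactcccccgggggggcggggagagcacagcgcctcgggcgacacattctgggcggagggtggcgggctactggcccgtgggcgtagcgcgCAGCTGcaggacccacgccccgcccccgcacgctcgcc
Phkb (chr8:85840738-85840987, plus strand): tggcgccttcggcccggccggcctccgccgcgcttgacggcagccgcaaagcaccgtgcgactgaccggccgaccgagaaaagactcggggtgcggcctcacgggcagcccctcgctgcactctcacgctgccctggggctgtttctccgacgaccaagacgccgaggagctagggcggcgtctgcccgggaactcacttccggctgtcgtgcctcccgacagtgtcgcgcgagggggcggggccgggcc
Phkg1 (chr5:129879089-129879338, minus strand): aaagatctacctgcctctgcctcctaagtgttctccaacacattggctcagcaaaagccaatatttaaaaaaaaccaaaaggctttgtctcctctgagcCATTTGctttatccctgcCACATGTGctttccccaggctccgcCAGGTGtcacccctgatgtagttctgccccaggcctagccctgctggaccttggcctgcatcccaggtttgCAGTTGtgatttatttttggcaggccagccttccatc
Phkg1 held 5 E-boxes, of which a pair overlap, Pygm and Phka1 held 2 each, and Phkb held 0. Over all 32851 RefSeq promoters of this length, 66.2% held at least 1 E-box, and 75% of the 48 promoters of the 35 genes did. The GC box GGGCGG, searched on both strands, was present 3 times in the Phka1 promoter and 2 times in that of Phkb, and 0 times in those of Pygm and Phkg1. It was present in 32.7% of all promoters. These are letter matches in a window and say nothing of whether a factor binds there.

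Among the 7 genes of glycogen synthesis and its scaffold, 3 (42.9%) were lower in dbTg at an unadjusted p under 0.05, where 4.64% of all tested genes were. The groups did not overlap for 4 (57.1%) with lower dbTg values, where 16.3% of all tested genes did so. Ugp2, which makes the UDP-glucose that glycogen synthase uses, read 7.98 and 8.42 in dbTg, against 8.88 and 8.81 in WT (difference -0.64, SE 0.17, adjusted p = 0.116). Gys1, muscle glycogen synthase, read 6.81 and 7.13 in dbTg, against 7.74 and 7.44 in WT (difference -0.62, SE 0.18, adjusted p = 0.136). In both genes the male pair was farther apart than the female pair, and without dbTg replicate 1 the difference of Ugp2 was -0.42. Gyg, the glycogenin that primes a new particle, read 7.86 and 7.85 in dbTg, against 8.31 and 8.22 in WT. Its difference of -0.41 (SE 0.13, adjusted p = 0.157) was smaller, and the arrays of each group lay close together. Ppp1r3a, the muscle subunit that holds protein phosphatase 1 on glycogen, differed by -0.28 (adjusted p = 0.360), also without overlap. Gbe1, the branching enzyme, differed by 0.02, with a 95% confidence interval of -0.64 to 0.69. Pgm2, named as a phosphoglucomutase, was the member of this group with higher dbTg values, at 3.14 and 2.89 in dbTg against 2.82 and 2.35 in WT (difference 0.43, adjusted p = 0.426).

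Taking breakdown and synthesis as 1 group, 7 of 11 glycogen genes were lower in dbTg at an unadjusted p under 0.05 (63.6%, where 4.64% of all tested genes were lower), and 0 were higher. Their median difference was -0.62, and -0.41 without dbTg replicate 2, where 4 of the 11 were lower at that p. The median was -0.44 without WT replicate 1. After quantile normalization it was -0.64 and 7 were lower.

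**Figure D2:**
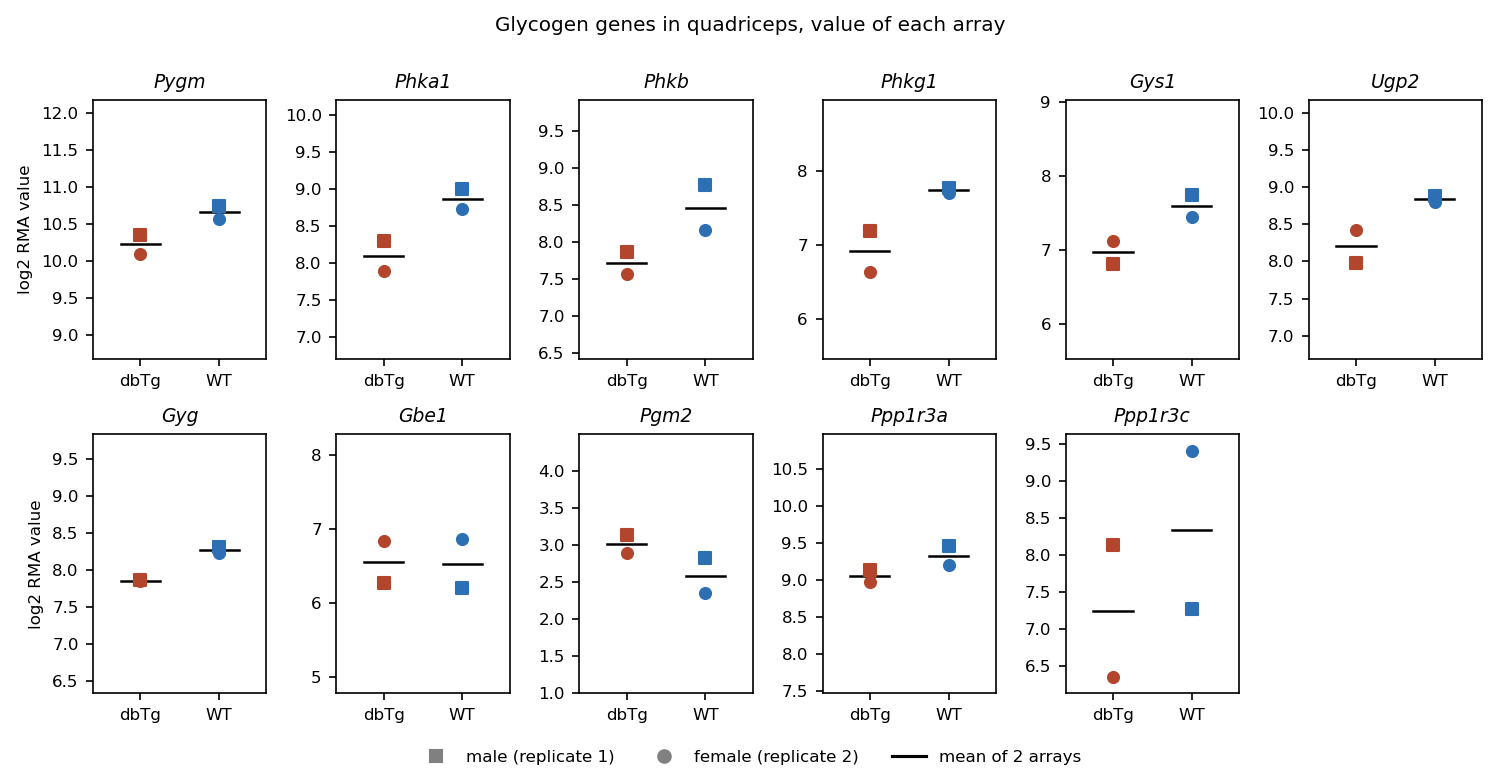
Log2 RMA value of each array for the 11 glycogen genes, dbTg left and WT right, with squares for males, circles for females and a line at the mean of the 2 arrays. Every panel spans the same height, centred on its gene. For Pygm, Phka1, Phkb, Phkg1, Gys1, Ugp2, Gyg and Ppp1r3a both dbTg points lie below both WT points, for Pgm2 above them, and for Gbe1 and Ppp1r3c the groups overlap.

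The 11 measured muscle isoforms all had negative differences, with a median of -0.43 and a range of -0.82 to -0.14. At an unadjusted p under 0.05, 6 of them (54.5%) were lower and 0 higher, against 4.64% lower and 14.0% higher of all tested genes. The 11 were Slc2a4, Hk2, Pfkm, Pgam2, Eno3, Pygm, Phka1, Phkg1, Gys1, Fbp2 and Ppp1r3a, so that 5 of them are also counted among the glycogen genes. Ldha, the muscle-type subunit of lactate dehydrogenase, was put in neither class, and its difference was positive, at 0.04. Its partner Ldhb, at -0.36, was counted as ubiquitous. The 8 measured ubiquitous or non-muscle isoforms had 4 positive and 4 negative differences, where 60.5% of all tested genes were positive, with 2 (25%) higher and 0 lower at that p, against 14.0% and 4.64% of all tested genes. Their median of 0.14 was 0.51 without WT replicate 1, 0.31 without WT replicate 2 and -0.026 after quantile normalization, which put the median of all tested genes at -0.0015.

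At the entry of glucose, the muscle and the ubiquitous isoforms differed in opposite directions. Hk2, the hexokinase that predominates in muscle, read 6.77 and 6.55 in dbTg, against 7.10 and 7.49 in WT. The difference was -0.64 (SE 0.19, unadjusted p = 0.0123, adjusted p = 0.139), and it was called without WT replicate 1 (-0.83, limma adjusted p = 0.0452, 0.0452 to 0.580 across alternatives). Hk1, the hexokinase of most tissues, read 3.03 and 2.69 in dbTg, against 2.51 and 2.11 in WT (difference 0.55, SE 0.25, unadjusted p = 0.0648). A dimmer probe set shared by Hk1 and Hk1os, which was not used, differed by -0.36 and cannot be assigned to either gene. Slc2a4, the insulin-regulated transporter GLUT4, read 6.60 and 6.72 in dbTg, against 6.77 and 7.25 in WT. This was a smaller difference, -0.35 (SE 0.20, adjusted p = 0.395), with a 95% confidence interval of -0.83 to 0.12. Slc2a1, the widespread transporter GLUT1, read 4.18 and 3.997 in dbTg, against 3.21 and 3.60 in WT (difference 0.69, SE 0.23, unadjusted p = 0.0209, adjusted p = 0.176). A dimmer probe set of Slc2a1 differed by 0.062, and the mean of both by 0.37. Single WT arrays moved Slc2a4 (between -0.60 and -0.11, according to which was left out) and Hk1 (0.35 without WT replicate 2). The groups did not overlap for any of these 4 genes. Of all tested genes, 33.7% were apart with higher dbTg values and 16.3% with lower ones.

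Phosphofructokinase, the enzyme that commits sugar to glycolysis, showed the same split for the muscle and the platelet isoform. Pfkm, the muscle isoform, read 8.36 and 8.34 in dbTg, against 8.98 and 8.61 in WT (difference -0.45, SE 0.16, unadjusted p = 0.0261, adjusted p = 0.194), and a difference of -0.27 without WT replicate 1. Pfkp, the platelet isoform, read 3.67 and 3.30 in dbTg, against 2.73 and 2.72 in WT. At 0.76 (SE 0.23, unadjusted p = 0.0139, adjusted p = 0.146), or 1.69-fold, it had the largest positive difference of the 31 measured members. Pfkl, the liver isoform, read 2.66 and 2.44 in dbTg, against 2.29 and 2.83 in WT. These values overlapped, with a difference of -0.01 and a 95% confidence interval of -0.63 to 0.61. The probe set shared by Aldoa and Aldoart1, which was not used, read 4.88 and 5.42 in dbTg, against 4.41 and 4.10 in WT. Its difference of 0.89 was larger than that of Pfkp and cannot be assigned to either gene.

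Pgam2, the muscle phosphoglycerate mutase, read 7.54 and 7.27 in dbTg, against 7.79 and 7.74 in WT (difference -0.36, SE 0.15, unadjusted p = 0.0505, adjusted p = 0.268). Its widespread partner Pgam1 was read by 2 probe sets that disagreed in size. The brighter gave 2.71 and 3.08 in dbTg, against 2.85 and 2.37 in WT, and a difference of 0.29 (adjusted p = 0.621). The dimmer gave 2.91 and 2.60 in dbTg, against 1.93 and 1.53 in WT, and a difference of 1.03 (unadjusted p = 0.00402, adjusted p = 0.0843).

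Within each array, the log2 value of the ubiquitous minus the muscle isoform was higher in dbTg by 1.21 for Pfkp and Pfkm, 1.19 for Hk1 and Hk2, 1.04 for Slc2a1 and Slc2a4 and 0.65 for Pgam1 and Pgam2. In these 4 contrasts both dbTg arrays lay above both WT arrays. For all but Pgam1 and Pgam2 this had to be so, because each gene alone was already apart in its own direction. Those contrasts restate the values of the single genes. The contrast of Pfkl and Pfkm was 0.44 and overlapped. That of Ldhb and Ldha went the other way, at -0.40, and also overlapped. An exact permutation test (two-sided) gives 0.333 for each of the 4, the smallest p that 2 arrays against 2 allow.

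**Figure D3:**
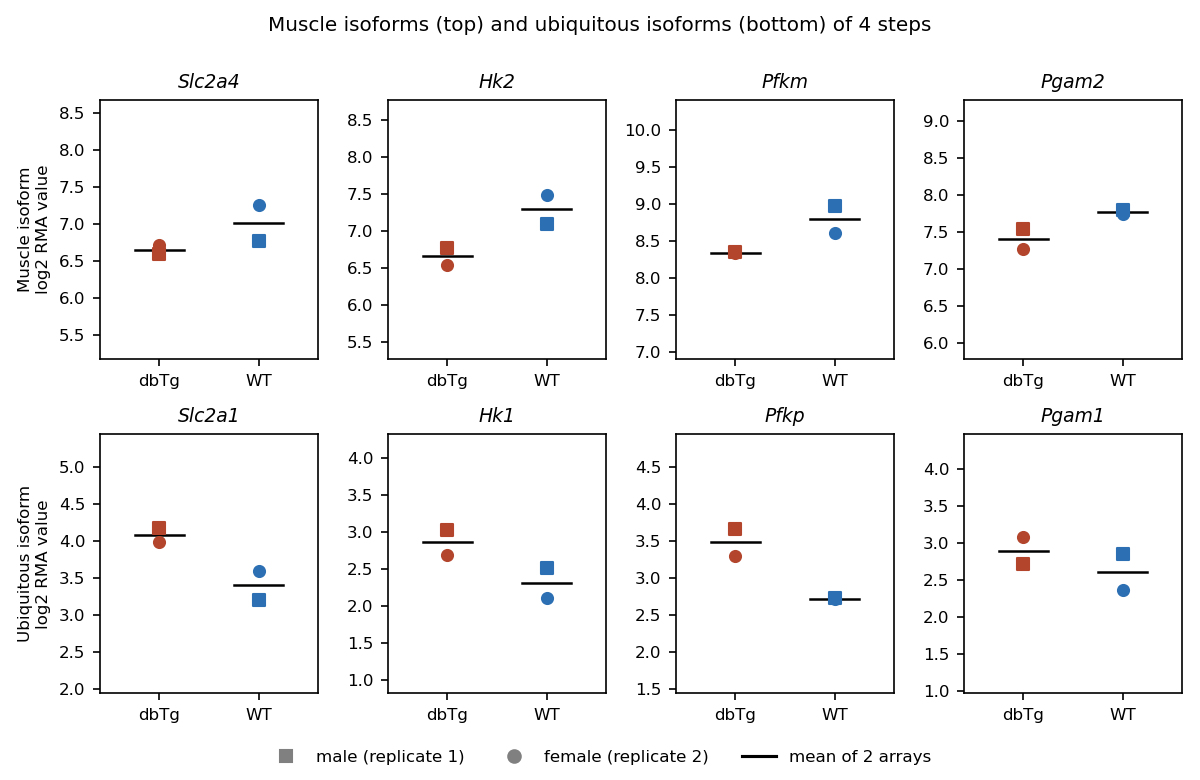
Log2 RMA value of each array for the muscle isoforms (top) and the ubiquitous isoforms (bottom) of 4 steps, dbTg left and WT right, with squares for males, circles for females and a line at the mean. In the top row every dbTg point lies below every WT point, and in the bottom row the groups are apart in the opposite direction for Slc2a1, Hk1 and Pfkp, while Pgam1 overlaps.

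Slc2a1, Hk1 and Pfkp, 3 of the 8 ubiquitous isoforms (37.5%), read higher in dbTg without overlap, near the 33.7% of all tested genes. Markers of macrophages and leukocytes read higher on the same arrays. All 16 markers had positive differences (60.5% of all tested genes had), 9 of them called in limma (2.01% of all tested genes were called higher), with a median of 1.61. Their mean level was 4.25 to 4.37 in dbTg and 2.42 to 2.63 in WT. The defining markers were measured above the intensity filter, with Ptprc at 5.03 and 4.63 in dbTg and 2.05 and 2.05 in WT. Markers of fibroblasts (7 of 7 positive, median 0.68) and of adipocytes (7 of 8 positive, median 1.17, 2 called) also read higher, and those of endothelial cells lower (8 of 8 negative, against 39.5% of all tested genes, with a median of -0.50, 0 called and 4 lower at an unadjusted p under 0.05, against 4.64%). The part of these cells in the differences of the isoforms was not tested.

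Muscle fibre markers were mixed. The 12 markers of fast fibres had a median difference of -0.02 and a range of -0.23 to 0.51. Of these, 1 (8.33%) was higher at an unadjusted p under 0.05 in limma, against 14.0% of all tested genes. Their mean level was 10.14 to 10.24 in dbTg and 10.09 to 10.25 in WT. Of the 7 markers of skeletal muscle, 5 (71.4%) had negative differences, against 39.5% of all tested genes. Their median was -0.10, and 0 were called, where 2.21% of all tested genes were. Ryr1, the calcium release channel, read 8.89 and 8.41 in dbTg, against 9.51 and 9.54 in WT. Its difference of -0.88 (unadjusted p = 0.00172, limma adjusted p = 0.0597) was as large as those of the phosphorylase kinase subunits. Ckm, muscle creatine kinase, differed by -0.36 (adjusted p = 0.360), Mb, myoglobin, by -0.30 (adjusted p = 0.552) and Des, the filament protein desmin, by 0.41 (adjusted p = 0.176). Their part in the differences of the muscle isoforms was not tested.

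Of the lower part of glycolysis, from triose phosphate to pyruvate, the genes other than Pgam1 and Pgam2 had differences between -0.14 and 0.07, with intervals that span 0. Tpi1, the triose phosphate isomerase, differed by -0.07 (95% confidence interval -0.49 to 0.35). Pgk1, the phosphoglycerate kinase, differed by 0.06 (interval -0.32 to 0.43) and Pkm, the pyruvate kinase of muscle and most other tissues, by -0.10 (interval -0.46 to 0.27). Eno3, the muscle enolase, read 10.27 and 10.07 in dbTg, against 10.38 and 10.25 in WT. Its difference of -0.14 had an interval of -0.44 to 0.15. For Gapdh, the glyceraldehyde phosphate dehydrogenase, the brightest probe set read 10.81 and 10.90 in dbTg, against 10.77 and 10.79 in WT (difference 0.07, interval -0.17 to 0.32). Gapdh was annotated to 11 probe sets, 8 of them shared with Gm12070 or Gapdh-ps15, so its signal cannot be separated from that of near-identical copies. Over the 9 of them with a mean above 10, the differences lay between 0.034 and 0.14, while the dimmer ones differed by -0.28 and, for the one shared with Gapdh-ps15, by 0.61. The lower limits for Tpi1 and Pkm pass the difference of Pfkm (-0.45).

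Lactate dehydrogenase differed in neither subunit beyond the spread of the arrays. Ldha, the muscle-type subunit, read 4.57 and 4.36 in dbTg, against 4.47 and 4.38 in WT (difference 0.04, SE 0.19). Ldhb, the heart-type subunit that slow fibres favour, read 4.48 and 5.03 in dbTg, against 4.25 and 5.99 in WT. Its female arrays were higher than its male arrays in both groups, and the difference of -0.36 had an interval of -1.62 to 0.89. The mean level of the 10 slow fibre markers had the same order over the arrays, at 3.17 (male) and 4.47 (female) in dbTg and 2.74 (male) and 5.06 (female) in WT. Their part in the Ldhb values was not tested. Without WT replicate 1 Ldhb was called (-1.23, limma adjusted p = 0.0326), without WT replicate 2 its difference was 0.50, and its adjusted p ranged from 0.0326 to 0.979 over all alternatives.

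A pair of regulators spread more widely between mice than any other member. Pfkfb3, which makes the fructose bisphosphate that activates phosphofructokinase, read 4.04 and 4.53 in dbTg, against 6.47 and 3.06 in WT. Both dbTg values lay between the WT values, and the difference of -0.48 had an SE of 0.95. Without WT replicate 1 the difference was 1.22 (limma adjusted p = 0.0402) and without WT replicate 2 it was -2.19 (adjusted p = 0.00284), 0.00284 to 0.969 across alternatives, so its direction was set by which WT array was kept. Ppp1r3c, another glycogen-targeting subunit of protein phosphatase 1, read 8.14 and 6.36 in dbTg, against 7.27 and 9.41 in WT. It had the most negative difference of the set, -1.09 (SE 0.77, adjusted p = 0.505), with groups that overlapped. This rested on single arrays, as the difference was -2.16 without WT replicate 1, -0.022 without WT replicate 2, -1.98 without dbTg replicate 1 and -0.20 without dbTg replicate 2. Pfkfb4, a relative of Pfkfb3, read 3.02 and 2.92 in dbTg, against 3.25 and 2.99 in WT (difference -0.15, adjusted p = 0.773).

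Both genes of the side branches had negative differences. Gpd1, the cytosolic glycerol phosphate dehydrogenase that links glycolysis to lipid synthesis and to the electron shuttle, read 6.73 and 5.99 in dbTg, against 6.81 and 6.91 in WT (difference -0.50, SE 0.25, adjusted p = 0.346). The groups did not overlap, but the female pair differed by -0.92 and the male pair by -0.08. Fbp2, the muscle fructose bisphosphatase, differed by -0.41 (SE 0.29, adjusted p = 0.515), with 1 dbTg array above WT replicate 2. Leaving out 1 array put Fbp2 between -0.80 and -0.013 and Gpd1 between -0.87 and -0.13.

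Members at a high level dominated the set. Of the 31 genes, 20 had a mean level of at least 5.90, as had 1331 tested genes. Over those 1331 genes the median difference was -0.019 and 51.9% of differences were negative. Over the 3327 tested genes with a mean level of 2.98 to 4.52, where 4 members lay, the median was 0.19 and 31.6% were negative. Over the 3327 dimmest tested genes, with a mean level of 1.48 to 1.97, the median was 0.012 and 48.3% were negative, so the tendency to read higher in dbTg was seen at middle levels and at neither end.

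**Figure D4:**
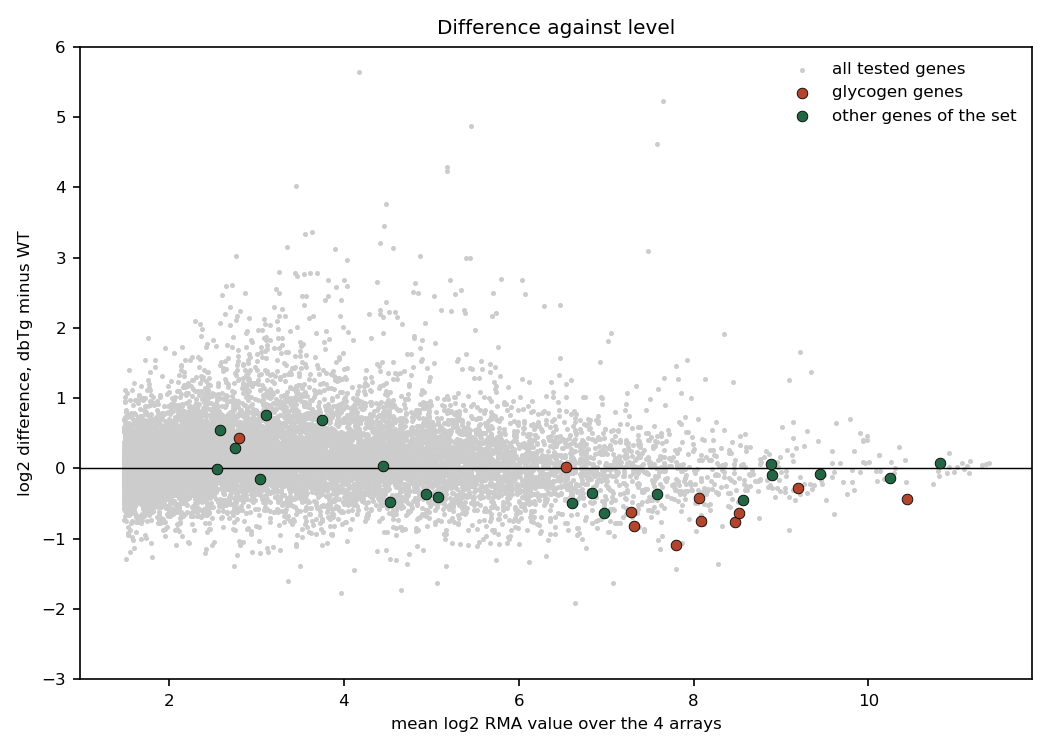
Log2 difference, dbTg minus WT, against the mean log2 RMA value over the 4 arrays, for all 13308 tested genes (grey), the 11 glycogen genes (red) and the other 20 measured genes (green). The higher genes Pfkp, Slc2a1, Hk1 and Pgm2 lie at mean levels under 4, and the lower glycogen genes lie above 7.

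Related genes outside the set gave 1 call. Of 25 other glycogen genes, 20 were tested and 1 was called higher, where 2.01% of all tested genes were. This was Pgm5, a phosphoglucomutase relative known as a protein of cell adhesion sites in muscle. Pgm5 read 4.88 and 4.84 in dbTg, against 3.69 and 3.82 in WT, and rose by 1.11 (SE 0.19, limma adjusted p = 0.0431, 0.0224 to 0.360 over all alternatives). The call was lost without dbTg replicate 1 (adjusted p = 0.278), without dbTg replicate 2 (adjusted p = 0.360), with the replicate number as a block (0.0971), after quantile normalization (0.0816) and without an intensity filter (0.0636). In the same list Stbd1, which tethers glycogen to membranes, read 4.34 and 4.01 in dbTg, against 3.34 and 2.69 in WT (difference 1.16, unadjusted p = 0.00476, adjusted p = 0.0913). Phkg2 and Pgm3, of UDP-acetylglucosamine synthesis, were also higher at an unadjusted p under 0.05 (0.55 and 0.57). Epm2a, the glycogen phosphatase laforin, and Pgm2l1, which makes glucose bisphosphate, were lower at that p (-0.70 and -0.75). In all, 4 genes of the list (20%) were higher and 2 (10%) lower at that p, against 14.0% and 4.64% of all tested genes. The median of the 22 genes of this list with a probe set was 0.11.

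Of 22 other glycolysis genes, 14 were tested, with 0 called in limma. At an unadjusted p under 0.05, 1 (7.14%) was higher in dbTg and 2 (14.3%) were lower, against 14.0% and 4.64% of all tested genes. Gpd2, the mitochondrial partner of Gpd1 in the shuttle, read 5.49 and 5.30 in dbTg, against 6.60 and 6.13 in WT (difference -0.97, adjusted p = 0.0720). Tigar, which lowers fructose bisphosphate, differed by -0.87 (adjusted p = 0.221, and -0.42 without WT replicate 1) and Adpgk, the ADP-dependent glucokinase, by 0.63 (adjusted p = 0.171). Of 8 pentose phosphate genes 6 were tested, with 5 positive differences, a median of 0.30 and 0 past an unadjusted p of 0.05.

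Signalling genes that act on glucose uptake were not called either, with 0 of 16 past the threshold in limma and 4 past an unadjusted p of 0.05. Of these, 2 (12.5% of the list) were higher in dbTg, near the 14.0% of all tested genes, and 2 (12.5%) were lower, against 4.64%. Tbc1d1, which restrains the movement of GLUT4 vesicles, read 5.29 and 5.18 in dbTg, against 5.86 and 6.77 in WT (difference -1.08, adjusted p = 0.118). The difference was -0.57 with the mean of its probe sets, -0.63 without WT replicate 2 and -1.53 without WT replicate 1, where it was called (limma adjusted p = 0.00514, up to 0.518 across alternatives). The AMP-activated kinase subunits differed in both directions, with Prkab2 at -0.78 (adjusted p = 0.0757) and Prkaa1 at 0.68 (adjusted p = 0.123). Akt1 differed by 0.55 (adjusted p = 0.198). Of 16 transcription factors and cofactors linked to glycolytic genes 15 were tested, with 0 called in limma and 3 (20%) lower at that unadjusted p, against 4.64% of all tested genes. Eya1, a coactivator of homeobox proteins that drive fast glycolytic genes, read 6.29 and 6.25 in dbTg, against 6.92 and 6.95 in WT (difference -0.66, adjusted p = 0.0775). Epas1, a hypoxia-inducible factor, differed by -0.72 (adjusted p = 0.150) and Mlxipl, the carbohydrate-responsive factor ChREBP, by -0.49 (adjusted p = 0.258). Of the genes named from these lists, Stbd1 and Epas1 were also called without WT replicate 1 (limma adjusted p = 0.0164 and 0.0258), and Gpd2, Tigar and Prkab2 without WT replicate 2 (adjusted p = 0.0139, 0.0236 and 0.0454).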

How the data were processed

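Quadriceps RNA of 2 dbTg and 2 WT mice was measured on 1 array each. The deposited values are RMA values on the log2 scale, which the authors made in Expression Console according to the labels' protocols. RMA corrects background, normalizes arrays by quantiles and summarises probes, so it removes shifts common to a whole array. Neither software version nor annotation build is given in the sources used here.

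Of 41345 probe sets, 23521 had exactly 1 gene symbol, 1814 several and 16010 none, and the brightest single-symbol probe set stood for each of 22180 genes. Testing was limited to the 13308 genes whose mean level reached the 40th percentile (1.48), and all 31 measured members passed. Groups were compared in 1 fit with limma 3.58.1 in R 4.3.3 (lmFit, eBayes with an intensity trend), two-sided, Benjamini-Hochberg adjusted, with a threshold of 0.05. Differences are dbTg minus WT, SEs are moderated, and intervals are 95% limma intervals. The number of arrays limits the precision. No set test was run. The fit was tested on simulated data.

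The members, classes and lists were chosen with earlier results of these data known. All members are named. Values of every array are printed for those with an unadjusted p under 0.05 or a difference of at least 0.5, and for isoform partners. From each related list, called genes and up to 6 with an unadjusted p under 0.05 are named. Other genes named were chosen after their values were seen. Alternatives were leaving out each array, a replicate block, 2 normalizations, 2 filters, the mean of or other probe sets, 2 eBayes settings and a threshold of 0.1. Symbols, promoters and names come from RefSeq assembly GRCm38.p6 and the platform annotation.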

Additional observations from a re-analysis of the deposited data

Results flagged for a closer look

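For 8 of the 31 measured genes the male pair and the female pair of mice differed in opposite directions between dbTg and WT. These are single pairs, so the difference between them was not tested. The pairs also differ in age, since the male WT mouse was 17 to 18 weeks old and the others were 16. The other 23 genes had differences of 1 sign in both pairs.

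The gaps were widest for the pair of regulators. The male pair of Ppp1r3c differed by 0.87 and its female pair by -3.05, a gap of 3.92. The male pair of Pfkfb3 differed by -2.43 and its female pair by 1.47, a gap of -3.90. The heart-type lactate dehydrogenase gene Ldhb differed by 0.23 and -0.96, a gap of 1.19. Smaller gaps were found for Pgam1 (-0.14 and 0.71, a gap of -0.85), Pfkl (0.38 and -0.39, a gap of 0.77) and Pgk1 (0.26 and -0.14, a gap of 0.40). For Ldha (0.10 and -0.02, a gap of 0.12) and Gbe1 (0.07 and -0.02, a gap of 0.086) both differences lay near 0.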

How the results depend on the processing

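All 4 genes of glycogen breakdown, with Gys1, Ugp2, Gyg, Hk2 and Pfkm, kept a negative difference under each of 12 alternatives. Slc2a1, Hk1 and Pfkp kept a positive one. These 12 alternatives were put to every gene. The groups of the genes named here did not overlap, so leaving out 1 array could not turn their sign. The replicate block, the filters and the eBayes settings leave a difference unchanged. Only the 2 normalizations and, for Slc2a1, the mean of its probe sets could have turned the sign. Of the 31 members 22 kept their sign throughout and 9 did not. The number of genes called over the whole array was 294, and 4 to 766 when 1 array was left out (the lone array of a group was assumed to vary like the other group). It was 127 after quantile normalization, 172 without an intensity filter and 772 at a threshold of 0.1. Members called numbered 0 to 3 when 1 array was left out and 2 at a threshold of 0.1. Members lower at an unadjusted p under 0.05 numbered 4 to 11, glycogen members among them 4 to 8, and members higher 0 to 4 (1 after quantile normalization). Leaving out 1 array gave medians of -0.27 to -0.20 for all members, -0.52 to -0.41 for glycogen, -0.17 to 0.051 for glycolysis and 0.11 to 0.51 for ubiquitous isoforms, which stood at -0.026 after quantile normalization.

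The replicate numbers also mark sex. Over all tested genes, the difference between the replicates in WT was hardly correlated with that in dbTg (correlation 0.049). Such a value over all genes cannot exclude pairing of some of them. The slow fibre markers averaged higher in the female than in the male of both groups. With the replicate block 65 genes and 0 members were called, with 9 members lower at an unadjusted p under 0.05.

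Leaving out 1 array turned the sign of Pfkl (-0.28 to 0.26), Tpi1 (-0.25 to 0.10), Pgk1 (-0.13 to 0.25), Pkm (-0.25 to 0.053), Pfkfb3 (-2.19 to 1.22), Ldha (-0.064 to 0.14), Ldhb (-1.23 to 0.50) and Gbe1 (-0.31 to 0.35). The sign also turned for Pfkl after median centring (0.025), for Ldha (-0.15) and Gbe1 (-0.011) after quantile normalization, and for Gapdh with the mean of its probe sets (-0.058) or a dimmer one (-0.28). The cause was not tested. No call of presence accompanies the values, so for dim genes such as Pfkl and Pgam1 the distance from background is unknown.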
